A study of Homo sapiens with 3 samples.

Results

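The small-subunit ribosomal proteins build, together with 18S ribosomal RNA, the cytosolic 40S subunit, which binds messenger RNA and reads its codons. Guides were taken by gene name for 28 genes of this subunit, and the rule uses no measured value. The library held 82 guides against them, 3 for each of 27 genes and 1 for RPS10, among 62916 guides and 20449 targeted genes in all. The proteins fall into those of the head of the subunit, which contacts transfer RNA and swivels during translocation, and those of the body and platform, where messenger RNA enters and leaves. Each is made from its own gene, most are present once per subunit, and dividing cells must renew them continuously. Inherited loss of 1 copy of several of these genes, RPS19 most often, causes Diamond-Blackfan anaemia, a failure of red cell production.

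The cells were NUGC3, an established human gastric cancer line, and were given a pool of GeCKO guides. Most of these direct the nuclease Cas9 to a named gene, and 1000 are non-targeting. Guide sequences were not at hand, so matches to further sites, such as ribosomal protein pseudogenes, were not checked. The 3 groups were cells given 10 nM RTX until day 14, cells given the solvent DMSO until day 14, and cells at day 0. All groups shared the line and the guide library, and each was a single library of genomic DNA. RTX is not spelled out in the labels, and the series title speaks of antifolate drugs. The sample titles set the groups, because a protocol note gives 14 days of DMSO for the group titled as day 0. With 1 library per condition, no difference below has a replicate check, and a guide's reads measure how many cells carry it, not how well it cut.

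The library totals were 17344507 reads in RTX, 18805737 in DMSO and 16547572 at day 0. Guides with no target in the genome gave the spread between libraries in the absence of a targeted gene. Their log2 ratios had an SD of 0.64 for RTX over DMSO, 0.56 for RTX over day 0 and 0.53 for DMSO over day 0, over the 991 guides that began with 10 or more normalized reads. Their medians were -0.10, 0.11 and 0.19 in the same order, against medians near 0 over all guides, so every ratio below is relative to the whole library.

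Guides against 40S genes took a smaller share of the reads in the DMSO culture at day 14 than at day 0, and a share in the RTX culture close to that at day 0. The 82 guides took 0.138% of all reads in RTX (95% Wilson interval 0.136% to 0.139%), 0.0951% in DMSO (0.0938% to 0.0966%) and 0.125% at day 0 (0.123% to 0.127%). These intervals cover counting error only, since PCR reads are not independent molecules. The non-targeting guides took 1.61%, 1.74% and 1.51% of the same 3 libraries, so their share was highest where that of the 40S guides was lowest. As a ratio of shares, RTX over day 0 was 1.10 for the 40S guides and 1.07 for the non-targeting guides. Without 1 guide against RPS21, which had the most RTX reads of all 40S guides, the 40S ratio was 1.05. The ratio of DMSO over day 0 was 0.760 for all 82 guides and 0.751 without that guide, against 1.15 for the non-targeting guides. The median 40S guide had 221 reads in RTX, 184.5 in DMSO and 209 at day 0.

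Guide by guide, the log2 ratio of normalized reads was computed with 5 added to each value, which understates ratios of guides with few reads. In DMSO over day 0, 23 of the 82 guides were at least 2-fold lower and 0 were at least 2-fold higher. Over all targeting guides, 7.61% were that much lower and 2.3% that much higher. In RTX over day 0, 74 of the 82 guides lay within 2-fold of their start. The others were split, and 2 of 82 were at least 2-fold lower and 6 at least 2-fold higher, against 5.36% and 3.18% of all targeting guides. In RTX over DMSO, 27 of 82 were at least 2-fold higher and 0 at least 2-fold lower, against 7.95% and 5.42%. The 3 comparisons share libraries pairwise, so their values stand side by side and do not count as separate evidence.

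**Figure D1:**
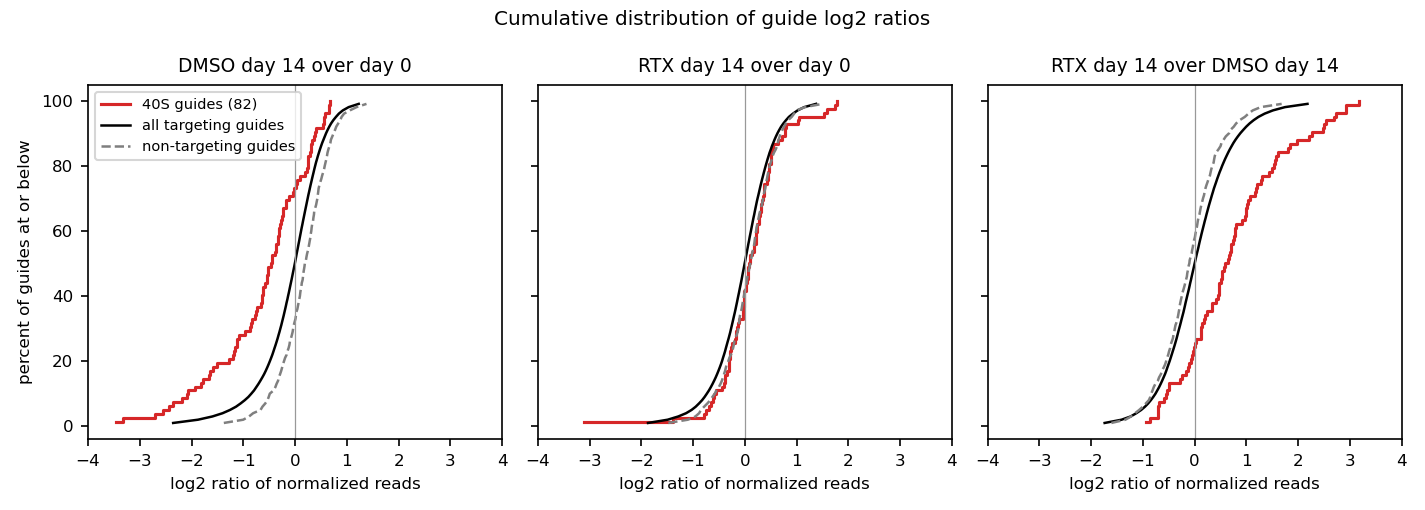
Cumulative percent of guides (vertical axis) at or below a log2 ratio of normalized reads (horizontal axis) for the 82 40S guides (red), all targeting guides (black) and non-targeting guides (grey, dashed), in the 3 comparisons; all and non-targeting guides are drawn from percentile 1 to 99. The red curve runs left of the others in DMSO over day 0, with a median of -0.46, along them in RTX over day 0, with a median of 0.09, and right of them in RTX over DMSO, with a median of 0.62.

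DMSO against day 0 asks which knockouts were lost or gained during culture without the drug. A gene's score is the median log2 ratio of its guides. In DMSO over day 0, 23 of 28 scores were below 0, against 50.1% of all genes. The 27 genes with at least 2 guides had a median score of -0.44, against a value close to 0 over 20150 genes. A score at or below -1, which means 2-fold lower, was reached by 8 of the 27, namely RPS18, RPS9, RPS27, RPS25, RPS27A, RPS15A, RPS19 and RPS20. Over all genes 3.42% reached it. With 20 rather than 5 added to each value, the count was 3 of 27, and the share of all genes at that setting is not given. No member stood 2-fold higher, where 0.109% of all genes did. Just inside that limit stood RPS20 at -1.08, and just outside it RPS24 at -0.85.

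RTX at day 14 against day 0 asks the same of cells under the drug, and here the members centred near their starting level. The median score was 0.09, with 0 of 27 members 2-fold lower and 0 of 27 2-fold higher, against 1.39% and 0.62% of all genes. The lowest scores were those of RPS25 at -0.70, RPS9 at -0.62 and RPS15A at -0.56, and the highest that of RPS26 at 0.78. In all 19 scores were above 0 and 9 below, against 49.6% and 50.4% of all genes. The split was 15 to 13 with libraries scaled to equal totals and 14 to 14 with the non-targeting guides at 0. The sign of several of these small values therefore depends on the scaling.

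RTX against DMSO, both at day 14, asks which knockouts differ in abundance with the drug. Here 24 of 28 scores were above 0, and 25 with the non-targeting guides at 0. Without that rescaling, 49.7% of all genes were above 0. The median over the 27 genes was 0.75, against a value close to 0 over all genes. Again 8 members passed the 2-fold limit, namely RPS26, RPS18, RPS27A, RPS20, RPS24, RPS21, RPS19 and RPS27, while 2.75% of all genes did. With 20 added to each value, the count was 5 of 27, again without a share of all genes at that setting. None was 2-fold lower, against 0.844% of all genes. RPS27 at 1.04 was the last inside the limit and RPS15A at 0.97 the first outside. The RPS27 value is that of a guide with 5 reads in RTX and 0 in DMSO, so the added 5 sets it. Without that guide the score was 1.56, the midpoint of guides at -0.05 and 3.17, which disagree.

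**Figure D2:**
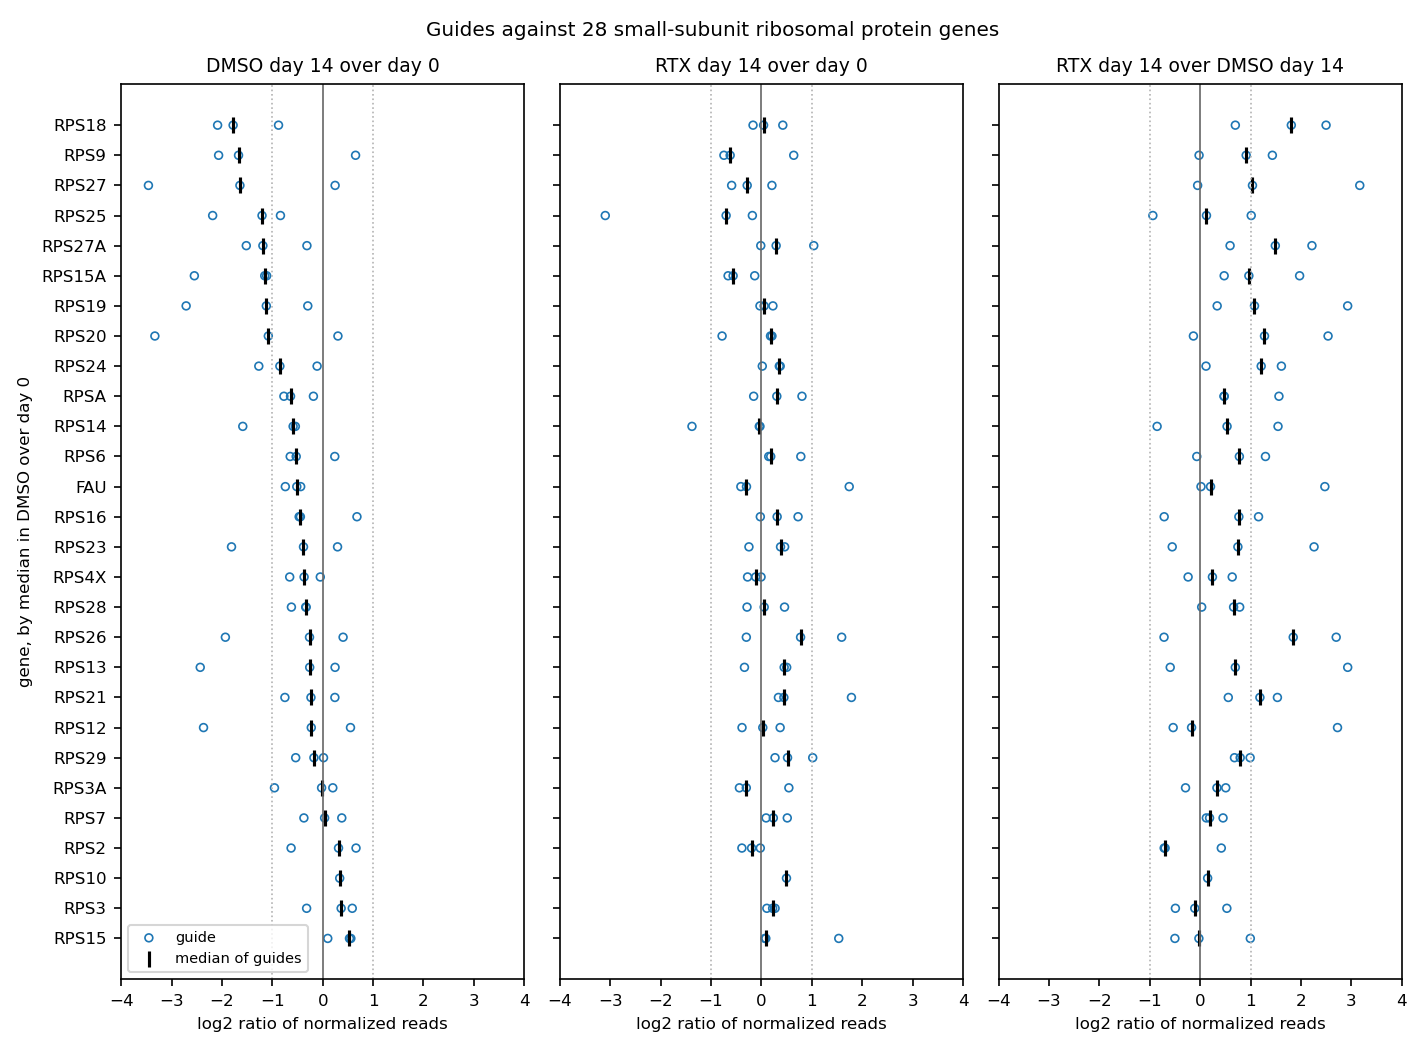
Log2 ratio of normalized reads of each guide (circles) and the median per gene (bars) for the 28 genes, ordered by the median in DMSO over day 0, in the 3 comparisons; dotted lines mark 2-fold. In DMSO over day 0 the medians run from -1.78 for RPS18 to 0.53 for RPS15, and 8 lie left of the lower line, while none does in RTX over day 0.

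No member passed the rank test on log2 ratios. Robust rank aggregation, which asks whether the guides of a gene rank together near one end of the whole table, called 0 of 27 members in either direction in each comparison after Benjamini-Hochberg adjustment over 20150 genes. Of all genes, 0.199% passed on the depleted side and 0% on the enriched side when DMSO was set against day 0. In RTX over day 0 these shares were 0% and 0.0794%, and in RTX over DMSO they were also 0% and 0.0794%. At an unadjusted permutation p under 0.05, 10 of 27 members were on the depleted side in DMSO over day 0, against 1357 of 20150 genes, and 14 were on the enriched side in RTX over DMSO, against 1183. In RTX over day 0, 1 member was on the depleted side and 4 on the enriched side, against 1144 and 1096 genes. The lowest adjusted permutation p was 0.132 for RPS15A in DMSO over day 0 and 0.320 for RPS26 in RTX over DMSO. With guides ranked by the authors' deposited p-values instead, RPS15A and RPS18 passed as depleted in DMSO over day 0, where that ranking called 40 of 20150 genes (0.199%). With guides ranked by a count test on recovered reads, the same rank aggregation called 0 members in each comparison. Each of these tests compares 2 libraries and cannot see differences between cultures.

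Among head proteins, RPS18 had the lowest score of all members in DMSO over day 0. RPS18 lies where the head meets the transfer RNA of the peptidyl site. Its 3 guides had 366, 171 and 554 reads in RTX, 67, 50 and 374 in DMSO, and 270, 165 and 619 at day 0. All 3 were lower in DMSO than in either other library, while RTX and day 0 were closer to each other. The scores were -1.78 in DMSO over day 0, 0.04 in RTX over day 0 and 1.81 in RTX over DMSO. For the first guide, the ratio of DMSO to day 0 was 0.222 with an exact 95% counting interval of 0.167 to 0.291, and that of RTX to day 0 was 1.35 with an interval of 1.15 to 1.58.

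RPS19, the gene most often mutated in Diamond-Blackfan anaemia, also had its lowest level in DMSO for each guide. Reads were 287, 404 and 128 in RTX, 37, 351 and 64 in DMSO, and 243, 387 and 130 at day 0. The second guide was close to its start in both cultures, and the first lay furthest below it in DMSO, with a ratio of DMSO to day 0 of 0.136 (0.0938 to 0.193). Scores were -1.12 in DMSO over day 0, 0.05 in RTX over day 0 and 1.08 in RTX over DMSO.

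RPS27A is made as a fusion with ubiquitin, so its gene supplies both a head protein and ubiquitin. Its guides had 171, 123 and 264 reads in RTX, 123, 25 and 100 in DMSO, and 138, 57 and 265 at day 0. DMSO was again the lowest library for each guide, and the scores were -1.19 in DMSO over day 0, 0.29 in RTX over day 0 and 1.49 in RTX over DMSO. RPS20, another head protein, had 196, 160 and 396 reads in RTX, 86, 26 and 479 in DMSO, and 168, 277 and 347 at day 0. Here the first and the second guide were lower in DMSO and the third was not, so that its guides spanned -3.33 to 0.30 in DMSO over day 0. The score of RPS20 was 0.18 in RTX over day 0 and 1.28 in RTX over DMSO.

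RPS25 differed from these in RTX. The protein is dispensable for growth in yeast and serves initiation from viral internal ribosome entry sites. Its guides had 58, 20 and 462 reads in RTX, 29, 47 and 466 in DMSO, and 66, 208 and 750 at day 0. The second guide was low in both cultures, at log2 ratios of -3.10 in RTX over day 0 and -2.18 in DMSO over day 0, and the third had nearly equal reads in both. The scores of RPS25 were -1.20 in DMSO over day 0, -0.70 in RTX over day 0 and 0.13 in RTX over DMSO. It was the 1 member with an unadjusted permutation p under 0.05 on the depleted side in RTX over day 0, where its adjusted permutation p was 0.583.

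The other head proteins had scores between -0.44 and 0.53 in DMSO over day 0. The guides of RPS12 had 373, 38 and 285 reads in RTX, 463, 63 and 43 in DMSO, and 486, 37 and 218 at day 0. The third guide alone was low in DMSO, at -2.37, and the score was -0.23 in DMSO over day 0 and -0.17 in RTX over DMSO. RPS15, which reaches toward the decoding site, had the highest score in DMSO over day 0, 0.53. Its guides had 215, 193 and 168 reads in RTX, 241, 104 and 264 in DMSO, and 201, 63 and 159 at day 0. RPS3 lines the entry of the messenger RNA channel and stood at 0.37, with 439, 217 and 246 reads in RTX, 521, 338 and 186 in DMSO, and 361, 200 and 209 at day 0. No RPS15 or RPS3 guide was 2-fold lower than day 0 in either culture.

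The single RPS10 guide had 381 reads in RTX, 378 in DMSO and 267 at day 0, and with 1 guide the gene was not tested. Its log2 ratios were 0.34 in DMSO over day 0 and 0.15 in RTX over DMSO. A guide listed under RPS10-NUDT3, which is not among the members, had 107 reads in RTX, 64 in DMSO and 112 at day 0. That guide stood at -0.91 in DMSO over day 0 and 0.83 in RTX over DMSO. RPS16, RPS28 and RPS29 had scores of -0.44, -0.34 and -0.17 in DMSO over day 0. In RTX over DMSO the scores of RPS16, RPS28 and RPS29 were 0.77, 0.66 and 0.80. For RPS29, a zinc-binding protein of the head, each guide was higher in RTX than in DMSO, over a narrow range of 0.68 to 0.99.

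Among proteins of the body and platform, RPS9, RPS27 and RPS15A stood 2-fold lower in DMSO over day 0. RPS9 belongs to the 5′ domain of the subunit and binds ribosomal RNA early in assembly. Its guides had 165, 169 and 88 reads in RTX, 64, 189 and 49 in DMSO, and 255, 106 and 150 at day 0. The first and the third were low in DMSO and partly so in RTX, while the second was above day 0 in both cultures. Scores were -1.67 in DMSO over day 0, -0.62 in RTX over day 0 and 0.91 in RTX over DMSO.

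RPS15A was the one member with each guide 2-fold lower in DMSO over day 0. The guides had 153, 379 and 295 reads in RTX, 39, 211 and 232 in DMSO, and 227, 414 and 467 at day 0. The RTX values lay between DMSO and day 0 for each guide. The scores of RPS15A were -1.15 in DMSO over day 0, -0.56 in RTX over day 0 and 0.97 in RTX over DMSO.

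RPS27, a zinc-binding platform protein with the close paralog RPS27L, had 520, 95 and 5 reads in RTX, 593, 7 and 0 in DMSO, and 447, 116 and 10 at day 0. Its first guide stood at 0.25, its second had the lowest log2 ratio of any 40S guide in DMSO over day 0, -3.46, and the third began from 10 reads only. The second guide's ratio of RTX to DMSO was 15.0, with a counting interval of 6.98 to 38.2. The score of -1.64 in DMSO over day 0 is that of the third guide, and without that guide it was -1.61.

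**Figure D3:**
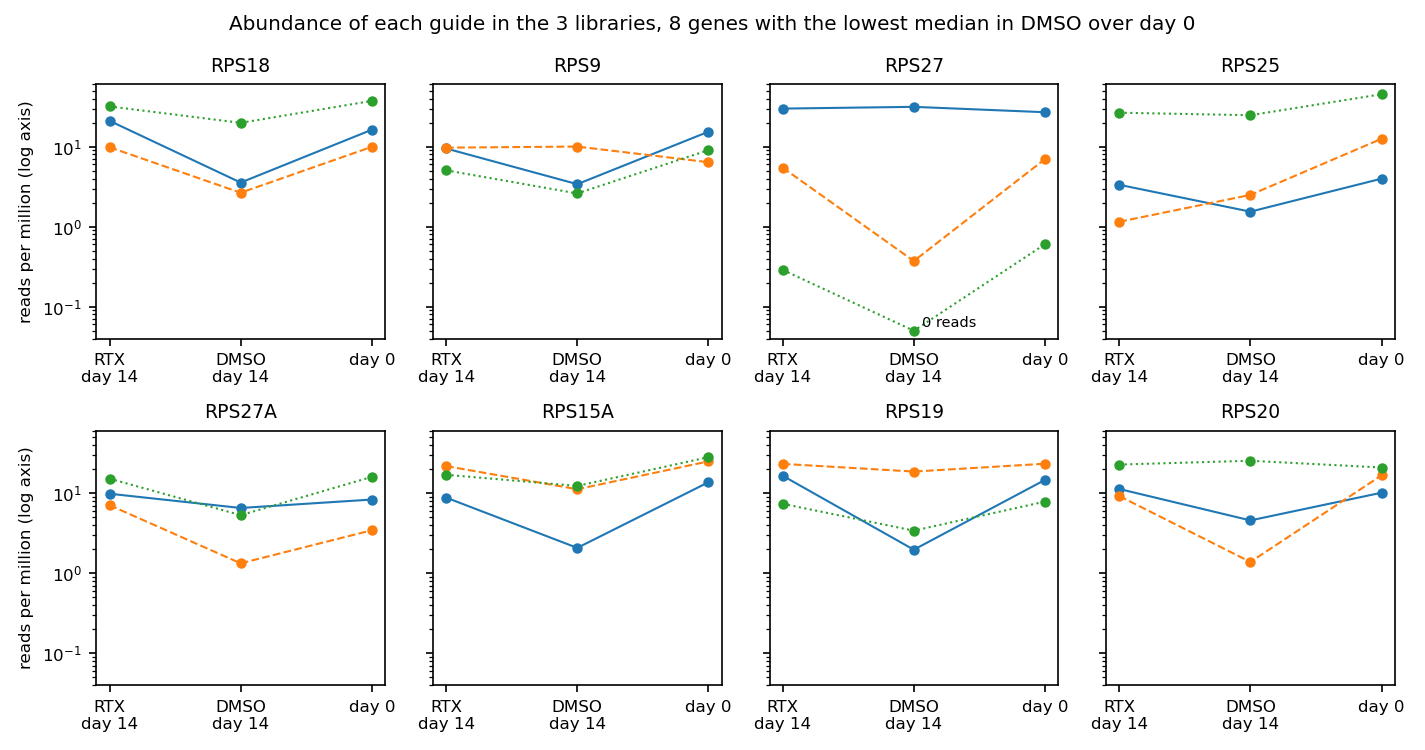
Reads of each guide scaled to the library total (RPM, log axis), 1 line per guide, in the RTX day 14, DMSO day 14 and day 0 libraries, for the 8 genes with the lowest score in DMSO over day 0; the RPS27 guide with 0 reads in DMSO is drawn at the foot of the axis. Most lines form a V with the lowest point in DMSO, and RPS25 has a line whose lowest point is in RTX, at 20 reads. The genes were chosen by low scores in DMSO over day 0, so the choice itself favours a low point in DMSO.

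RPS26, RPS24 and RPS21 were the body and platform genes with the highest scores in RTX over DMSO. RPS26 sits at the platform beside the exit of messenger RNA, and had the highest score in RTX over DMSO, 1.85, and in RTX over day 0, 0.78. Its guides had 150, 44 and 192 reads in RTX, 21, 83 and 55 in DMSO, and 85, 55 and 60 at day 0. The first was low in DMSO and above day 0 in RTX, the second ran the other way, and all 3 began from fewer reads than the median 40S guide. In DMSO over day 0 the score of RPS26 was -0.26. The ratio of the first guide in RTX over DMSO was 7.87, with a counting interval of 4.97 to 13.1.

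RPS24, a body protein also mutated in Diamond-Blackfan anaemia, had 586, 193 and 267 reads in RTX, 595, 66 and 124 in DMSO, and 576, 149 and 204 at day 0. The first guide was level across libraries and the other two were lower in DMSO, giving -0.85 in DMSO over day 0, 0.36 in RTX over day 0 and 1.21 in RTX over DMSO. RPS21, a small body protein, had 99, 1377 and 1594 reads in RTX, 45, 1028 and 603 in DMSO, and 71, 1083 and 456 at day 0. The third RPS21 guide was the most abundant 40S guide in RTX and lay 1.79 above day 0 on the log2 scale. The RPS21 scores were -0.23 in DMSO over day 0, 0.45 in RTX over day 0 and 1.19 in RTX over DMSO.

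RPS2, which like RPS3 lies at the entry of the messenger RNA channel, was the one body member below 0 in RTX over DMSO. Its guides had 131, 117 and 292 reads in RTX, 240, 95 and 524 in DMSO, and 172, 134 and 295 at day 0, and the score was -0.69. In RTX over day 0 it was -0.20, and in DMSO over day 0 it was 0.31, since 2 of its guides had more reads in DMSO than at the start.

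The remaining body and platform genes had scores between -0.64 and 0.04 in DMSO over day 0, and between 0.19 and 0.78 in RTX over DMSO. RPSA, also known as the laminin receptor precursor, stood at -0.64 and 0.48 in these comparisons. RPS14, the gene whose single-copy loss marks the myelodysplastic 5q- syndrome, stood at -0.59 and 0.53, with 1 guide of 3 at -1.59 in DMSO over day 0. RPS6, the phosphorylated substrate of the S6 kinases, stood at -0.53 and 0.78. FAU, whose product is a ubiquitin-like protein fused to a 40S protein, stood at -0.51 and 0.21, and 1 of its guides was 2.48 higher in RTX than in DMSO.

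RPS23 of the decoding centre and RPS13 each had a single guide at -1.81 and -2.43 in DMSO over day 0, beside guides at 0.29 and 0.25. The scores of RPS23 and RPS13 were -0.38 and -0.26 in DMSO over day 0 and 0.75 and 0.70 in RTX over DMSO. RPS4X, which has a paralog on the Y chromosome, stood at -0.37 and 0.24, RPS3A at -0.02 and 0.33, and RPS7, which can bind MDM2, at 0.04 and 0.19.

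Guides of the same gene often disagreed. In DMSO over day 0, 14 of the 27 genes with at least 2 guides had at least 1 guide 2-fold lower, 8 had at least 2, and for 11 each guide was below 0. Over all 20150 genes these shares were 19%, 3.48% and 14.6%. In RTX over DMSO, 19 of 27 had at least 1 guide 2-fold higher, 8 had at least 2, and for 11 each guide was above 0, against 20.9%, 2.84% and 13.9% of all genes. The widest spans in DMSO over day 0 were those of RPS27, from -3.46 to 0.25, RPS20, RPS12, and RPS9, from -2.07 to 0.65. How well each guide cuts was not measured.

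Head genes and body genes had close medians in each comparison. The 11 head genes with at least 2 guides had a median score of -0.44 in DMSO over day 0, and the 16 body and platform genes -0.45. There 5 of 11 and 3 of 16 were 2-fold lower, against 3.42% of all genes. In RTX over day 0 the medians were 0.09 and 0.07. Scores above 0 were 10 of 11 and 8 of 16, against 49.6% of all genes. With the non-targeting guides at 0, those above 0 were 5 of 11 and 8 of 16. In RTX over DMSO the medians were 0.77 and 0.72. There 4 of 11 and 4 of 16 were 2-fold higher, against 2.75% of all genes. The differences between the groups were not tested.

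Other ribosome-related genes were set beside the 40S proteins. The 27 40S genes and 46 genes of the large 60S subunit, which forms peptide bonds, had medians of -0.44 and -0.85 in DMSO over day 0, of 0.09 and -0.18 in RTX over day 0, and of 0.75 and 0.56 in RTX over DMSO. In RTX over day 0, 0 of 27 and 4 of 46 were 2-fold lower, against 1.39% of all genes. By guides, 2.44% of 82 and 12.5% of 136 were 2-fold lower there, against 5.36% of all targeting guides. Of the 60S proteins RPL11 was lowest in DMSO over day 0 at -2.76 and in RTX over day 0 at -1.73. RPL12 followed at -2.40 in DMSO over day 0. RPL3, the one gene of both lists to pass the gene test (depleted in DMSO over day 0, adjusted permutation p = 0.0373), stood at -1.89. The 60S genes RPL10A and RPL41 were at the other end, at 0.28 and 0.48. These differences between the subunits were not tested.

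The small-subunit processome, which folds and cuts the precursor of 18S ribosomal RNA in the nucleolus, had 47 genes with medians of -0.60 in DMSO over day 0, 0.12 in RTX over day 0 and 0.66 in RTX over DMSO. In DMSO over day 0, 13 of 47 were 2-fold lower, against 3.42% of all genes, and UTP18 passed the gene test, as did 0.199% of all genes. In RTX over DMSO 14 were 2-fold higher, against 2.75% of all genes, and UTP18 and FCF1 passed, as did 0.0794% of all genes. UTP23 had the lowest score, -2.44 in DMSO over day 0, followed by UTP18 at -2.04, while WDR46, with 2 guides, and WDR36 were highest at 0.64 and 0.40. The 15 late maturation factors and chaperones, which act on nearly finished 40S particles or carry single 40S proteins, had medians of -0.42, 0.02 and 0.54 in the same order, with none past the gene test. Of these, TSR2, the carrier of RPS26, stood at -1.46 in DMSO over day 0 and RIOK1, a kinase of late 40S maturation, at -1.32, whereas RPS19BP1 and BYSL stood at -0.04 and 0.17.

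**Figure D4:**
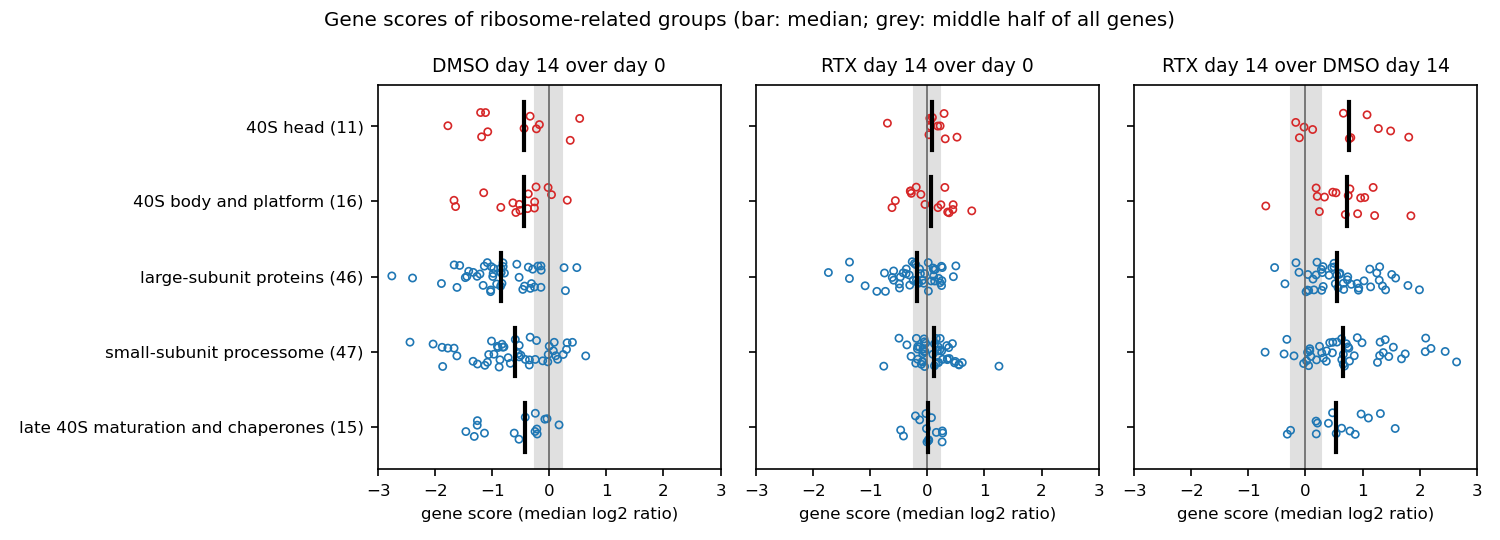
Gene scores (median log2 ratio of the guides of a gene, circles) of the 40S head and body genes (red) and of 3 related groups (blue), with the median of each group as a black bar, the interquartile range of all genes in grey and the number of genes in brackets. Group medians lie between -0.85 and -0.42 in DMSO over day 0, between -0.18 and 0.12 in RTX over day 0 and between 0.54 and 0.77 in RTX over DMSO.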

How the data were processed

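Guides were amplified from genomic DNA by successive rounds of PCR before Illumina sequencing, per the labels' protocols. The authors deposited 3 guide tables, 1 per pair of libraries. The submitters' processing notes name MAGeCK 0.5.7 and hg19. The rules by which reads were assigned are not given in the sources used here. The deposited values behave as a signal of abundance, reads divided by 1 size factor per library. Undoing that factor gave whole reads (tolerance 0.1) for at least 99.9968% of values. The deposited p-values served only as an alternative ranking. The 6 columns of means were not used.

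Python 3.11.15 with numpy 2.4.6 computed log2 ratios (pseudocount 5, at least 10 normalized reads at day 0, which all 82 member guides passed). Of the 62610 guides past that filter, 72 carried date-like names, and such names (23) were left out of gene scores. Shares without 1 RPS21 guide were added after the data were examined. Robust rank aggregation ranked these guides in each direction, with the top 0.25 of ranks, 10000000 random draws per number of guides (smallest p 1e-07), Benjamini-Hochberg adjustment over 20150 genes with at least 2 guides, and a threshold of 0.05. It was tested on simulated data. A ranking of guides by a count test on recovered reads (edgeR 4.0.16, exact test, dispersion from the non-targeting guides) was added after the data were examined. With that ranking, robust rank aggregation called 43 genes depleted in DMSO over day 0 and 16 enriched in RTX over DMSO. In RTX over day 0 it called 15 enriched and 3 depleted.

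Members and lists were chosen with earlier results of these data known. Reads are given for the 8 lowest and 3 highest scores in DMSO over day 0, the 6 highest and 3 lowest in RTX over DMSO, and the 4 widest guide spans.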

Additional observations from a re-analysis of the deposited data

How the results depend on the processing

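Alternatives were pseudocounts of 1 and 20, no filter or one of 50 reads, scaling to equal totals or to the non-targeting guides, the mean or the second most changed guide per gene, and for the gene test the top 0.1 of ranks, the authors' p-values and the count test. Over 147 alternative values, 138 kept their direction and stayed within 1.5 times a count or within 1 SD of the non-targeting guides. With a pseudocount of 20, 3 members rather than 8 were 2-fold lower in DMSO over day 0 and 5 rather than 8 were 2-fold higher in RTX over DMSO, since a larger pseudocount shrinks ratios of guides with few reads. With a pseudocount of 1, 1 member guide rather than 0 was 2-fold lower in RTX over DMSO. With the mean over guides, 1 member rather than 0 was 2-fold lower in RTX over day 0. Scaling to the non-targeting guides moved the median of all genes to -0.20 in DMSO over day 0, -0.11 in RTX over day 0 and 0.10 in RTX over DMSO (from -0.00, where the mean and the second most changed guide gave 0.0091 and 0.0013). So scaled, the members' medians were -0.64 in DMSO over day 0, 0.85 in RTX over DMSO and -0.0202 in RTX over day 0, where the main value was 0.0876. With guides ranked by the authors' p-values, 2 members rather than 0 passed the gene test in DMSO over day 0, among 40 genes in all under either ranking; the cause was not tested. The other gene tests run gave 0 members in each comparison. Over all genes, the 40 depleted in DMSO over day 0 became 13 with a pseudocount of 1. The 16 enriched in RTX over day 0 became 10 with a pseudocount of 1 and 31 with the authors' p-values, where the 0 depleted became 14, and 3 in the count test and 4 with a pseudocount of 20. The 16 enriched in RTX over DMSO became 25 with a pseudocount of 20 and 26 with the authors' p-values. With a filter of 50 reads, which left out 4 member guides, 10 members were 2-fold lower in DMSO over day 0. In RTX over DMSO 9 were 2-fold higher. RPS12 was added to both, and RPS14 in DMSO over day 0 only. RPS12 then rested on guides at -0.23 and -2.37 in DMSO over day 0, and at -0.17 and 2.73 in RTX over DMSO. RPS14 rested on guides at -1.59 and -0.54 in DMSO over day 0. For the alternative pseudocounts, filters and guide summaries, the share of all genes past 2-fold is not given, so these member counts lack a matching background. With 3 guides per gene and 1 library per condition, a difference between cultures cannot be told apart from drift. No paired analysis was possible because each group holds 1 library.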

Other observations

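A few genes close to the 40S subunit lay outside the 28 genes. GNB2L1, the scaffold also called RACK1 on the head, was lower in both cultures, at -1.26 in RTX over day 0 and -0.77 in DMSO over day 0. Its 3 guides had 157, 334 and 122 reads in RTX, 53, 458 and 193 in DMSO, and 436, 431 and 298 at day 0. By log2 ratio each lay below its start in both cultures. The second was the least changed, at -0.37 in RTX over day 0 and -0.07 in DMSO over day 0. RPS27L, the paralog of RPS27, stood at 0.26 in RTX over day 0 and 0.15 in DMSO over day 0. Neither gene passed the gene test.

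Some unassembled ribosomal proteins can bind the ubiquitin ligase MDM2. Guides against MDM2, its relative MDM4 and the cell cycle inhibitor CDKN1A had scores of 0.03, -0.04 and 0.33 in DMSO over day 0. In RTX over DMSO the scores of MDM2, MDM4 and CDKN1A were -0.46, 0.26 and -0.38, and none passed the gene test.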
